A study of Mus musculus with 24 samples.

Results

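The cytosolic heat shock proteins are described here as 10 genes of mouse liver: Hspa1a, Hspa1b, Hspa8, Hsph1, Hsp90aa1, Hsp90ab1, Dnaja1, Dnajb1, Stip1 and Hspb1. They were chosen by symbol from the 22429 genes of the liver mRNA count table, and each symbol matched 1 row. All 10 were among the 12690 genes tested. The 24 libraries of polyadenylated RNA came from livers of male F1 hybrid C57BL6J/FVBN mice, with 4 libraries in each of 6 groups. The wild-type groups (Ercc1 +/+) were freely fed to 16 weeks, freely fed to 104 weeks, or held on 30% less food to 16 weeks. The mutant groups (Ercc1 d/-) were freely fed to 7 weeks, freely fed to 16 weeks, or held on 30% less food to 16 weeks. Ercc1 encodes a subunit of a DNA repair endonuclease, and mice with this pair of alleles lack normal repair in every tissue and age early, so the mutation is not confined to the liver. Free intake differed by genotype, at 3.0 g a day in the wild type and 2.3 g in the mutant, and restricted rations were 2.1 g and 1.6 g. Restriction started at 7 weeks of age in steps of 10% and reached its full extent at 9 weeks. All mice were housed singly, and on the day of sacrifice food was withheld until after collection. The libraries of a group carry numbers but no statement that they come from separate mice, and the p-values cover only the spread between them.

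Heat shock proteins are molecular chaperones: they bind unfolded or partly folded proteins and let them fold, or hand them on for degradation. Hsp70 proteins cycle between ATP- and ADP-bound states, J proteins start the cycle by stimulating ATP hydrolysis, and Hsp110 proteins reset it by exchanging the nucleotide. Hsp90 takes over clients at a late stage of folding, such as steroid hormone receptors and kinases, and receives them through the adaptor Hop, the product of Stip1. Heat shock factor 1 (HSF1) drives these genes when misfolded protein builds up, by binding heat shock elements, which are inverted repeats of GAA. Heat-induced members such as Hspa1a are low in unstressed cells, while Hspa8 and Hsp90ab1 are expressed at high levels throughout. In liver, body temperature and feeding are known to move the same genes over the day.

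The promoter sequences are shown because they carry the letters that HSF1 recognises, and because the Hspa1a and Hspa1b sequences show how alike this pair is. RefSeq promoter windows on GRCm38.p6, of 250 bases before to 50 after a start, were found for 7 of the 10 genes; Hspa8, Hsp90aa1 and Hsp90ab1 had none. Capitals mark matches to an element in which GAA and TTC alternate with any 2 bases (NN) between them. The 2-unit form is GAA, NN, TTC or TTC, NN, GAA, and the 3-unit form adds another NN and the opposite unit. Read on the other strand these forms give themselves or each other, so both strands are covered, and each 3-unit match holds overlapping 2-unit matches. The first 3 lines give the 120 bases before the start at chr17:34972157-34972276 (minus strand), chr17:34959239-34959358 (minus strand) and chr5:135887799-135887918 (plus strand). The last gives 30 bases around the Hsph1 match at chr5:149636287-149636316 (minus strand).
Hspa1a: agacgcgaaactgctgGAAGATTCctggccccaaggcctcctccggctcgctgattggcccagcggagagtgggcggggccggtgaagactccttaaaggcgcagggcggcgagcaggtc
Hspa1b: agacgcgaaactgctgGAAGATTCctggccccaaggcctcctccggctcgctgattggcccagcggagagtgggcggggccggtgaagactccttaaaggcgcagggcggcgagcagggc
Hspb1: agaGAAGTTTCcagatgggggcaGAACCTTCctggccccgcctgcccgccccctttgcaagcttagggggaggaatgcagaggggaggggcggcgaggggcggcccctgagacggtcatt
Hsph1: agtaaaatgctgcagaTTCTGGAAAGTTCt

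The Hspa1a and Hspa1b stretches differed at 1 of the 120 printed bases, T119G counted from the first printed base with the Hspa1a base first, and at 4 of the 300 bases of the whole window. The 2-unit element lay in 6 of the 11 windows of the matched genes (54.5%), against 15.1% of all 32851 windows of the table. It was found for Hspa1a, Hspa1b, Hsph1, Dnaja1 and Hspb1, and its letters were not in the windows of Dnajb1 and Stip1. The 3-unit element lay in 2 of the 11 windows (18.2%), both of Hsph1, against 0.603% of all windows. These 2 windows overlap and hold the same site. Counted by gene, the 2-unit element was found for 71.4% of the 7 matched genes, against 17% of all genes of the table. The near-identical Hspa1a and Hspa1b windows are counted separately there. The 3-unit element was found for 14.3%, against 0.662%. These are matches of letters, not measured binding.

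On GRCm38 the genes lie on 7 chromosomes. The Hsp70 genes Hspa1a (chr17:34969190-34972156, minus strand) and Hspa1b (chr17:34956436-34959238, minus strand) stand 9951 bases apart, and Hspa8 is at chr9:40800984-40810087. Hsph1 is at chr5:149614287-149636376, Hsp90aa1 at chr12:110690605-110702728 and Hsp90ab1 at chr17:45567775-45573271. The J protein genes Dnaja1 and Dnajb1 are at chr4:40722150-40737149 and chr8:83608193-83612653, Stip1 is at chr19:7020702-7039967 and Hspb1 at chr5:135887919-135889563. Of all stretches of 100 bases in the Hspa1a transcript, 47.1% also occurred in Hspa1b, and the ratio of their counts stayed between 0.803 and 0.850 in all 24 libraries. Reads from this pair may be shared between the rows, so the pair is treated as 1 measurement reported under both names.

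Library totals ran from 13.3 to 20.6 M (mega) counts. Ercc1 stood at 2.06 to 4.46 CPM (counts per 1 M library counts, on library sizes scaled by TMM) in the 12 wild-type libraries and at 1.08 to 2.33 in the 12 mutant libraries. Albumin, the defining product of hepatocytes, took 3.77% to 12.0% of counts in each library, and mitochondrial transcripts took 8.60% to 16.9%. One library stood apart: in the first library at 104 weeks, 10 immediate-early genes such as Fos and Egr1 summed to 1249 CPM, against 118 to 204 CPM in the other 3 of its group and 60.7 to 158 CPM in the remaining 20. The main results of the 104-week group are given with and without that library. In bulk liver, fewer cells of a type and less RNA per cell cannot be told apart.

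The constitutive genes were the most abundant. In freely fed wild-type liver at 16 weeks, Hspa8 averaged 522 ± 121 CPM per kb of exon (SD, n = 4) and Hsp90ab1 498 ± 60.6 CPM per kb, which differed by less than their spread. Hsp90aa1, the inducible Hsp90, followed at 164 ± 26.4 CPM per kb. Stip1 stood at 64.3 ± 8.24 CPM per kb. Dnaja1 at 51.6 ± 8.97 and Hspb1 at 51.6 ± 13.2 CPM per kb did not differ beyond their spread. Hspa1b at 36.5 ± 31.6 and Hspa1a at 28.3 ± 24.5 CPM per kb varied most between the libraries of this group, and Hsph1 stood at 22.4 ± 4.87 and Dnajb1 at 11.6 ± 4.38 CPM per kb. The Hspa1a and Hspa1b spread reached across the levels of their neighbours in this order. The levels per kb of this pair would be too low if reads matching both genes were left out. The handling of such reads is not given. The order depends on the merged lengths, 4301 bases for Hspa8, 2999 for Hsp90ab1, 8629 for Dnaja1 and 1031 for Hspb1. Undivided, Hspa8 averaged 2244 ± 519 CPM and Hsp90ab1 1494 ± 182 CPM. Dnaja1 averaged 445 ± 77.4 CPM and Hspb1 53.2 ± 13.6 CPM.

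**Figure D1:**
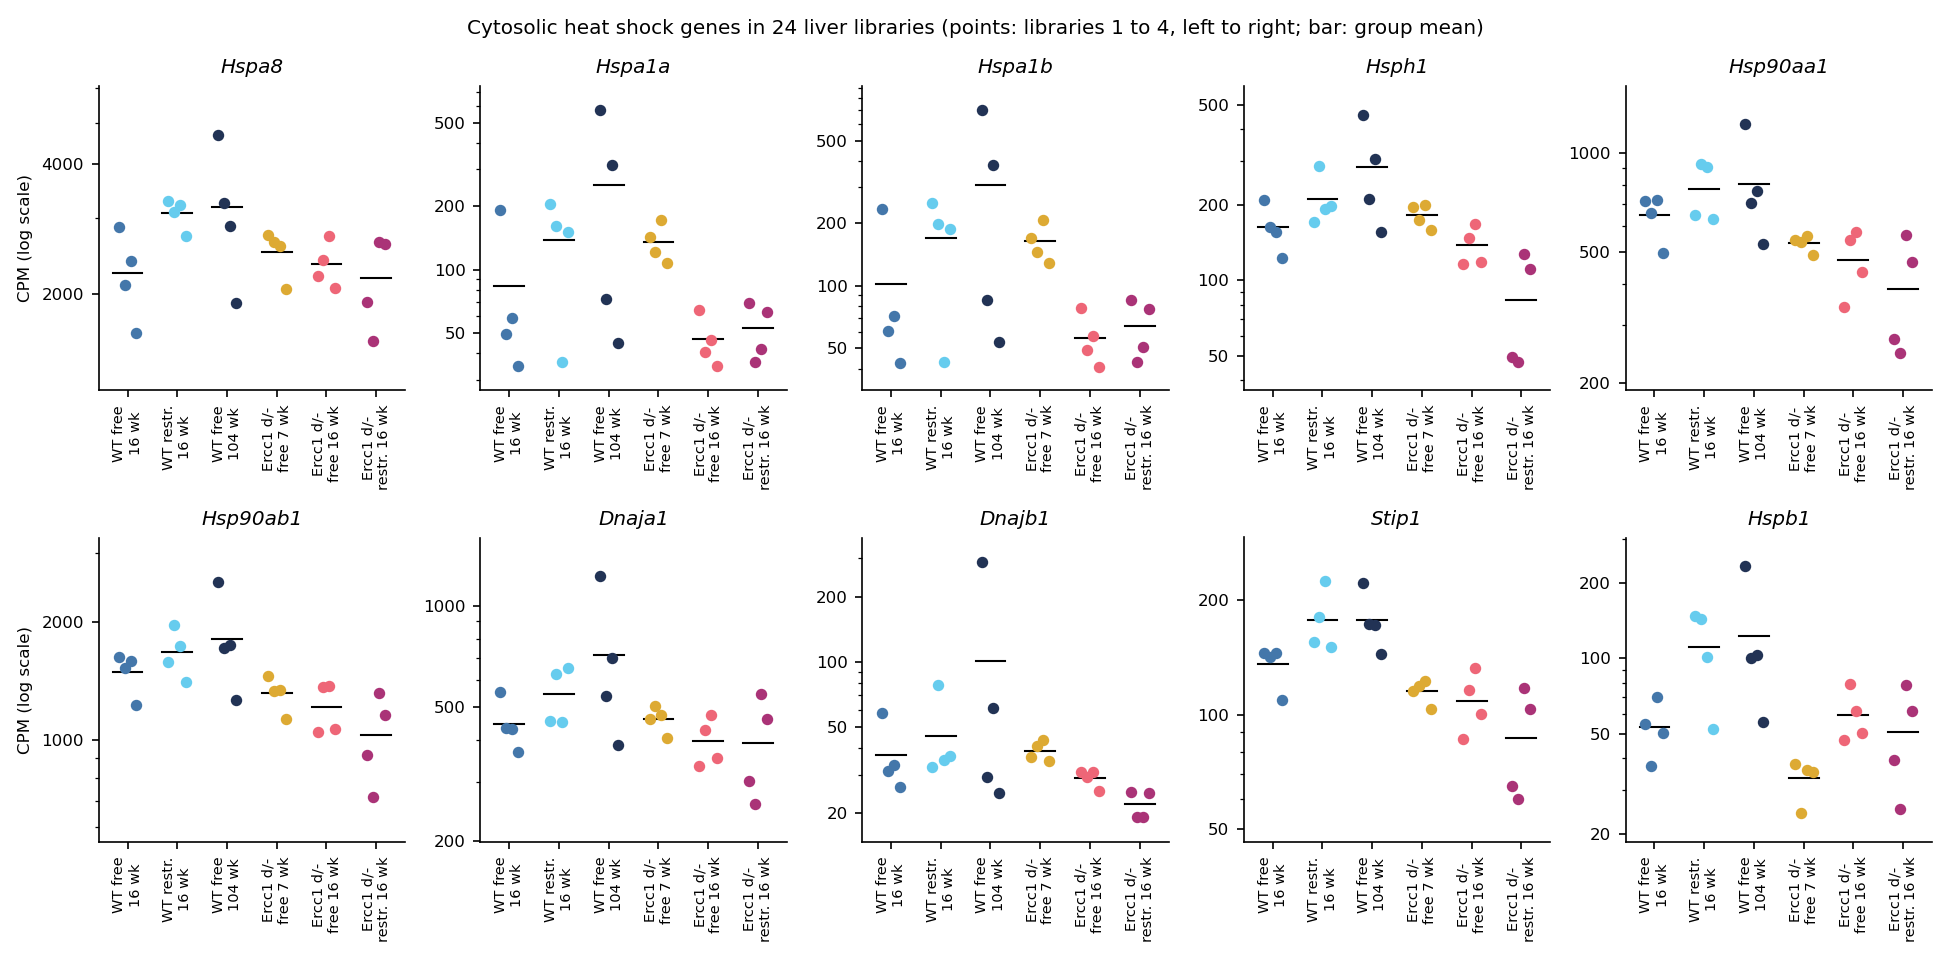
CPM of each of the 10 genes (log axis) in every library, by group; points are single libraries and bars are group means. The 104-week wild type has the highest mean for all 10 genes, but for 3 when its first library is left out, and the restricted mutant has the lowest for 7.

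The highest group mean was in the 104-week wild type for all 10 genes with every library counted, and the second highest in the restricted wild type. This order rested on the first 104-week library: without it, the 104-week mean was the highest for 3 genes (Hspa1a, Hspa1b and Hsph1) and the restricted wild-type mean for the other 7. Hspa8, for instance, averaged 2682 CPM at 104 weeks without that library, against 3086 CPM in the restricted wild type. With or without it, the lowest mean was in the restricted mutant for 7 genes, in the freely fed mutant at 16 weeks for Hspa1a and Hspa1b, and in the 7-week mutant for Hspb1. Several neighbours in this order did not differ beyond their spread: Dnaja1 averaged 392 ± 135 CPM in the restricted mutant and 397 ± 65.7 CPM in the freely fed mutant. Hspa8 averaged 2180 ± 534 CPM in the restricted mutant and 2244 ± 519 CPM in the freely fed wild type.

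Genotype under restriction, the comparison of the restricted mutant with the restricted wild type, gave the members' calls. Stip1, Hsph1, Hsp90aa1, Hsp90ab1 and Hspb1 were lower in the restricted mutant (edgeR's quasi-likelihood test, Benjamini-Hochberg adjusted p under 0.05 over all 12690 genes). All 10 fold changes were below 0, with a median of -1.04 on the log2 scale beside -0.03 for all genes tested. Over all genes, 18.3% were called in this comparison, 9.58% higher and 8.7% lower, so 5 of 10 called lower stands beside 8.7% of all genes. At an unadjusted p under 0.05 the count was 8 of 10, beside 31.7% of all genes. With the counts of Hspa1a and Hspa1b summed it was 7 of 9. With library sizes left unscaled, the median of all genes moved by 0.12 and the share of calls that were higher rose from 52.4% to 73.1%, and all 10 members stayed below 0.

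Stip1, the adaptor between Hsp70 and Hsp90, stood at 156, 180, 225 and 150 CPM in the restricted wild type. In the restricted mutant it stood at 65.1, 60.2, 118 and 104 CPM. No mutant library reached the lowest wild-type one. The log2 difference was -1.04 ± 0.19 (SE; 2.05-fold lower; edgeR adjusted p = 0.00039).

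Hsph1, the Hsp110 that exchanges nucleotide on Hsp70, read 170, 285, 193 and 198 CPM in the restricted wild type and 49.6, 47.3, 127 and 111 CPM in the restricted mutant. The first 2 mutant libraries were the low ones, and all 4 were below every wild-type library. The log2 difference was -1.34 ± 0.31 (2.52-fold lower; edgeR adjusted p = 0.0043).

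The Hsp90 genes were low in the same mutant libraries. Hsp90aa1 read 645, 921, 904 and 631 CPM in the restricted wild type and 272, 247, 561 and 466 CPM in the restricted mutant. Hsp90ab1, the constitutive form, read 1585, 1973, 1737 and 1407 CPM and then 918, 715, 1320 and 1162 CPM. Neither gene's groups overlapped, and mutant libraries 1 and 2 were the lowest for both. The log2 differences were -1.004 ± 0.248 for Hsp90aa1 (edgeR adjusted p = 0.00625) and -0.70 ± 0.19 for Hsp90ab1 (edgeR adjusted p = 0.00955). In a fit to these 8 libraries alone, the adjusted p of Hsp90ab1 was 0.0575 and its call was lost.

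Hspb1, the small heat shock protein that holds unfolded proteins without ATP, was the least firm of the 5. It read 147, 144, 102 and 52.2 CPM in the restricted wild type and 39.3, 25.1, 78.2 and 61.7 CPM in the restricted mutant. The fourth wild-type library lay among the mutant ones, so the groups overlapped. The log2 difference was -1.12 ± 0.39 (edgeR adjusted p = 0.048). This call was lost in 6 of the 8 fits that left out 1 library (adjusted p from 0.0189 to 0.131 over the 8), and also under RLE scaling (0.0528), without scaling (0.0796), without the filter on low counts (0.0841), with the replicate number as a block (0.0591) and in the fit to these 8 libraries alone (0.113).

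The Hsp70 and J protein genes did not pass the threshold. Hspa8 read 3285, 3107, 3220 and 2732 CPM against 1915, 1555, 2639 and 2609 CPM, with no overlap, and its log2 difference was -0.50 ± 0.21 (edgeR adjusted p = 0.0945). Hspa1a read 205, 162, 36.3 and 151 CPM against 69.6, 36.4, 42.0 and 62.7 CPM. The third restricted wild-type library was as low as the lowest mutant one, and the log2 difference was -1.40 ± 0.65 (edgeR adjusted p = 0.146). Hspa1b, which may share reads with Hspa1a, differed by -1.41 ± 0.66 (edgeR adjusted p = 0.148).

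Dnajb1, the heat-induced J protein, read 32.8, 77.9, 35.3 and 36.6 CPM in the restricted wild type and 24.9, 19.2, 19.1 and 24.9 CPM in the restricted mutant. The groups did not overlap, and the log2 difference was -1.05 ± 0.54 (edgeR adjusted p = 0.188). The fit to these 8 libraries alone gave Dnajb1 an adjusted p of 0.0446. Dnaja1 overlapped between groups and differed by -0.48 ± 0.26 (edgeR adjusted p = 0.221). In all, 6 of the 10 genes were lower without overlap, beside 7.11% of all genes tested.

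**Figure D2:**
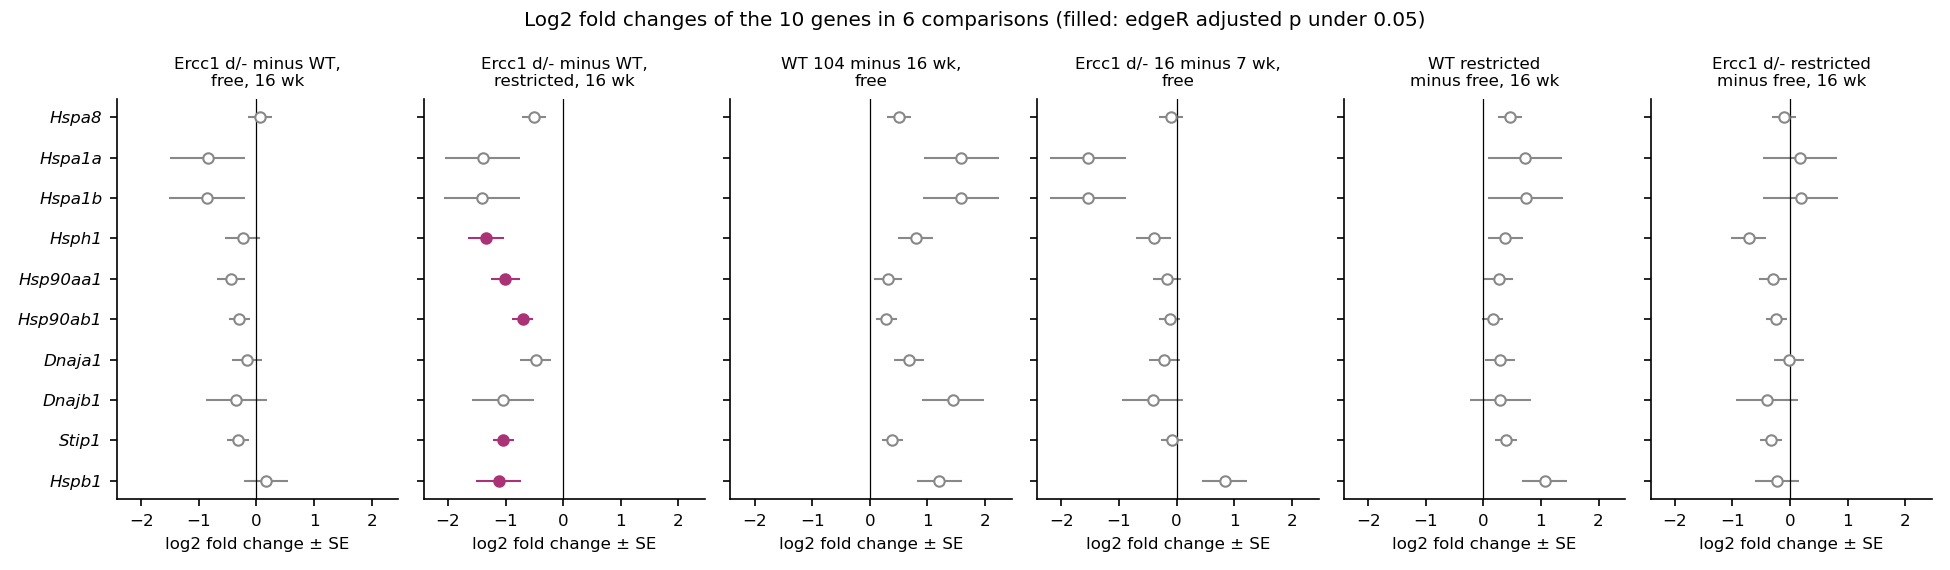
Log2 fold change ± SE (horizontal axis) of each of the 10 genes in the 6 comparisons of a pair of groups; filled points passed an edgeR adjusted p of 0.05. The 5 filled points lie in the comparison of genotypes under restriction, where all 10 genes lie below 0.

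Other chaperone genes changed in part of the pathway. Lists of heat shock factors, other Hsp70, Hsp110 and J proteins, cochaperones, small heat shock proteins, the chaperonin TRiC and mitochondrial chaperones named 56 genes, of which 52 were tested. Between the restricted groups edgeR called 9 of the 52 lower and 1 higher in the mutant, beside 8.7% and 9.58% of all genes, and the median over the lists was -0.11 on the log2 scale. The Hsp90 cochaperones held 5 of the 9, out of 11 tested.

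St13, which like Stip1 binds Hsp70, averaged 151 ± 9.92 CPM in the restricted wild type and 96.0 ± 11.2 CPM in the restricted mutant, a log2 difference of -0.65 ± 0.10 (edgeR adjusted p = 9.7e-05). Fkbp4, an immunophilin of the Hsp90 and steroid receptor complex, averaged 328 ± 68.6 CPM against 151 ± 56.4 CPM, a difference of -1.12 ± 0.20 (edgeR adjusted p = 0.000307). Ahsa1, which stimulates the Hsp90 ATPase, differed by -0.63 ± 0.13 (edgeR adjusted p = 0.00172). Chordc1, another Hsp90 partner, differed by -0.90 ± 0.20 (edgeR adjusted p = 0.00243). Hspa4l, of the Hsp110 family, differed by -1.33 ± 0.29 (edgeR adjusted p = 0.0025).

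The Chordc1 site is printed beside the Hsph1 site above because it is the longer of the pair. It spans 30 bases at chr9:18292259-18292288 (plus strand), and capitals again mark the element.
Chordc1: accgGAACGTTCGGGAAAATTCCTGAAgca
Over the 56 listed genes, 46 matched the promoter table; 31.7% of their windows held the 2-unit element and 8.33% the 3-unit element, the latter in Chordc1, Dnajb6, Hspd1 and Hspe1.

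TRiC, the ring-shaped chaperonin that folds actin and tubulin, had 0 of its 7 tested subunits called in this comparison (edgeR, with 1 at an unadjusted p under 0.05; DESeq2 also called 0). Among mitochondrial chaperones, Hspa9 was higher in the restricted mutant by 0.31 ± 0.09 on the log2 scale (edgeR adjusted p = 0.0232), at 681 ± 27.0 CPM against 549 ± 33.3 CPM. The mRNA of Hsf1 itself averaged 15.7 ± 2.23 CPM in the restricted mutant and 18.9 ± 2.29 CPM in the restricted wild type, a log2 difference of -0.26 ± 0.14 (edgeR adjusted p = 0.191).

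Other lists also differed between the restricted groups. All 13 endoplasmic reticulum chaperones had log2 differences below 0, and edgeR called 12 of them lower, beside 8.7% of all genes. The list had a median of -1.07 and a summed level of 2071 to 3539 CPM against 3445 to 9706 CPM. Pdia4, a disulfide isomerase, fell by 1.70 on the log2 scale (edgeR adjusted p = 0.000725), and Hspa5, the Hsp70 of that compartment, fell by 1.60 (edgeR adjusted p = 0.00117).

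The cold-inducible RNA-binding proteins Rbm3 and Cirbp, which rise when cells cool, were both higher in the restricted mutant, by 0.88 ± 0.16 (edgeR adjusted p = 0.000517) and 0.73 ± 0.23 (edgeR adjusted p = 0.0306). Their summed level was 37.7 to 58.8 CPM in the mutant libraries and 20.3 to 29.9 CPM in the wild-type ones. Rbm3 was also called higher in other comparisons. It was higher by 0.83 ± 0.17 in the freely fed mutant against the wild type at 16 weeks (edgeR adjusted p = 0.00162). With restriction it was higher by 0.65 ± 0.17 in the wild type (edgeR adjusted p = 0.0106) and by 0.70 ± 0.16 in the mutant (0.00533). edgeR called all 10 macrophage markers higher in the restricted mutant, summing to 270 to 379 CPM against 91.2 to 159 CPM, and none was at 0. Of 8 hepatocyte markers, 1 was higher and 3 lower, and of 13 clock genes, 1 was higher and 3 lower. Among the endothelial, stellate, bile duct, neutrophil, B cell and erythroid markers tested, edgeR called Vwf, S100a8 and S100a9, all higher in the restricted mutant. The endothelial and neutrophil lists as a whole did not differ beyond their spread. Endothelial markers summed to 187 ± 25.5 CPM in the restricted mutant and 211 ± 46.3 CPM in the restricted wild type. Neutrophil markers summed to 6.60 ± 1.58 CPM against 5.66 ± 2.31 CPM. The 6 T and NK cell markers were too low to be tested. The part of these other genes in the members' difference was not tested.

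**Figure D3:**
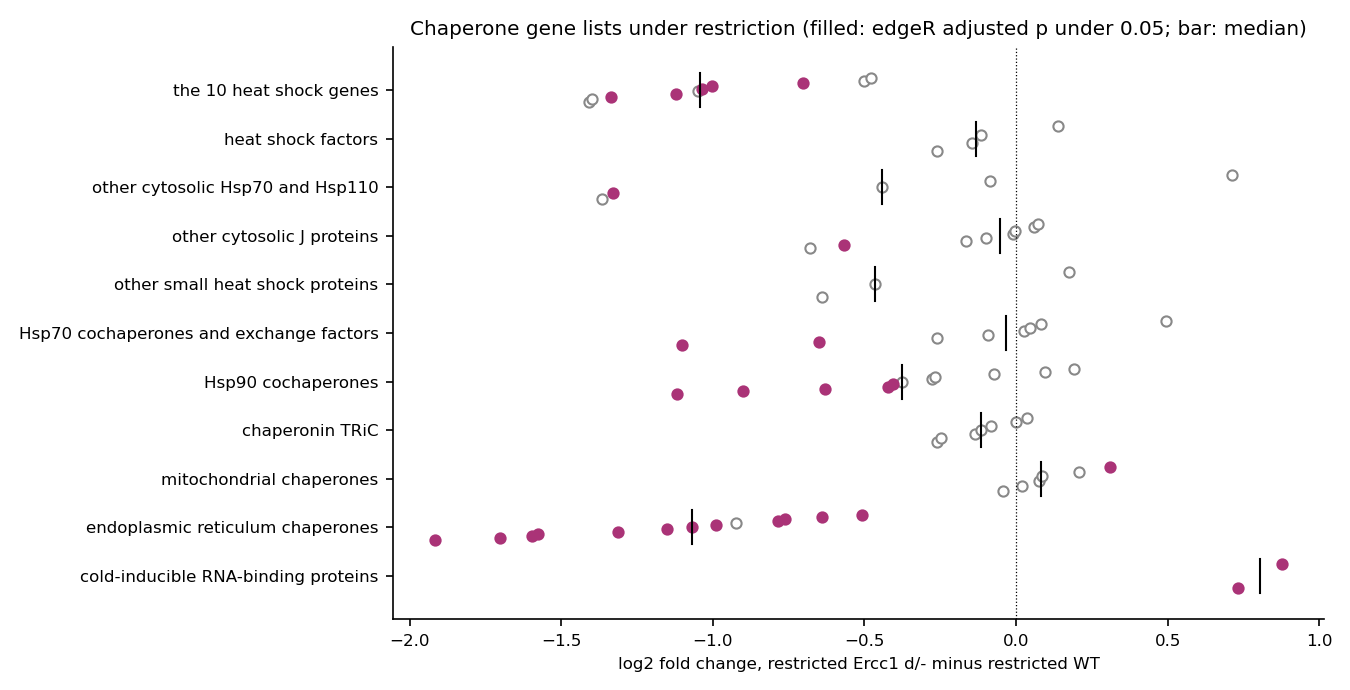
Log2 fold changes between restricted mutant and restricted wild type for every tested gene of each chaperone list and of the cold-inducible list; filled points passed an edgeR adjusted p of 0.05 and vertical bars are list medians. The 10 heat shock genes have a median of -1.04 and the endoplasmic reticulum chaperones of -1.07, while both cold-inducible genes lie above 0.

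Natural ageing was read from the wild type at 104 against 16 weeks. All 10 genes were higher on average at 104 weeks, with a median of 0.74 on the log2 scale beside 0.02 for all genes tested, and none passed the threshold. edgeR called 0 of 10 and DESeq2 called 1, Hspb1. At an unadjusted p under 0.05 edgeR had 8 of 10, or 7 of 9 with the counts of Hspa1a and Hspa1b summed. Over all genes, edgeR called 10.1% in this comparison and 24.5% had an unadjusted p under 0.05.

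Hspa1a read 576, 72.5, 316 and 44.7 CPM at 104 weeks and 192, 49.5, 59.0 and 35.02 CPM at 16 weeks. The first and the third old libraries were above every young one, and the other two lay among the young. The log2 difference was 1.59 ± 0.65 (edgeR adjusted p = 0.135), with a 95% interval from 0.22 to 2.96. Hspa1b ran in parallel, with 706, 85.6, 381 and 53.7 CPM at 104 weeks.

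Dnajb1 read 288, 29.3, 60.9 and 24.7 CPM at 104 weeks and 57.7, 31.3, 33.3 and 26.3 CPM at 16 weeks. Its difference of 1.44 ± 0.54 (edgeR adjusted p = 0.0967) rested on the first old library and was 0.04 without it. Hspb1 read 233, 100.1, 103 and 56.0 CPM against 54.7, 37.2, 70.2 and 50.6 CPM, and 3 of the 4 old libraries were above every young one. Its difference of 1.21 ± 0.39 had the smallest adjusted p of the 10 (edgeR, 0.0517).

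The remaining genes differed by less. Hsph1 averaged 282 ± 133 CPM against 163 ± 35.4 CPM, and Dnaja1 averaged 714 ± 368 CPM against 445 ± 77.4 CPM (edgeR adjusted p = 0.105 and 0.109). Hspa8 differed by 0.50 ± 0.21 and Stip1 by 0.39 ± 0.19 (edgeR adjusted p = 0.129 and 0.197). The Hsp90 genes showed the smallest differences, 0.32 ± 0.25 for Hsp90aa1 and 0.28 ± 0.18 for Hsp90ab1 (edgeR adjusted p = 0.46 and 0.368).

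Single libraries decided how this comparison read. Without the first old library, all 10 differences stayed above 0 but fell to between 0.04 and 0.78, with a median of 0.27, and edgeR called 0 of 10. Without old library 4, edgeR called 6 of 10: Hspa1a, Hspa8, Hsph1, Dnaja1, Dnajb1 and Hspb1. Without old library 2 it called Dnajb1, and without young library 1 it called Hspa1a and Hspa1b. The calls over all genes also moved with the library left out, from 1286 in the main fit. They were 1533 without old library 4, 1024 without old library 2, 933 without young library 1 and 866 without old library 1.

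Of 9 immediate-early genes tested, edgeR called 4 higher at 104 weeks, and 1, Junb, without the first old library. It called higher 4 of 10 macrophage markers, Igkc and Jchain of plasma cells, and S100a8 and S100a9 of neutrophils, with the same counts without that library. S100a8 averaged 1.64 ± 0.64 CPM at 104 weeks and S100a9 2.31 ± 1.07 CPM. The neutrophil list as a whole did not differ beyond its spread, at 9.40 ± 1.18 CPM against 8.95 ± 1.22 CPM at 16 weeks. Macrophage markers summed to 164 to 314 CPM at 104 weeks and 116 to 169 CPM at 16 weeks, with none at 0. The clock genes differed strongly between the ages: Arntl, an activator of the clock, averaged 1.99 ± 0.60 CPM at 104 weeks and 14.1 ± 4.23 CPM at 16 weeks. Nr1d1, a repressor of Arntl, averaged 52.7 ± 7.63 CPM against 3.88 ± 1.87 CPM (edgeR adjusted p = 1.85e-06). Both clock genes were also called without the first old library. The part of these lists in the members' levels was not tested. Of the 52 other chaperone genes, 5 were higher and 1 lower at 104 weeks in edgeR's test, beside 5.13% and 5% of all genes. Hspa4, an Hsp110, was higher by 0.55 ± 0.13 (edgeR adjusted p = 0.0079), Hspb8, a small heat shock protein, by 0.73 ± 0.18 (0.0116), Dnaja4, a J protein, by 1.05 ± 0.27 (0.0127) and the TRiC subunit gene Cct7 by 0.44 ± 0.13 (0.0279). The remaining one was Cct2, at 0.36 ± 0.10. All 5 of these higher calls were lost without the first old library, where the adjusted p ran from 0.057 for Hspa4 to 0.122 for Cct2. Hsf2, a relative of HSF1, was lower by 0.93 on the log2 scale, at 14.9 ± 2.08 CPM against 28.5 ± 3.39 CPM (edgeR adjusted p = 0.00313, and 0.0148 without the first old library).

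The 10 genes tended to be high or low in the same libraries. At 104 weeks the first library was the highest of its group for all 10 genes and the fourth was the lowest for all 10. In the freely fed wild type at 16 weeks, the first library was the highest for 8 genes and the fourth the lowest for 9. In the restricted mutant the second library was the lowest for 9 genes, and in the 7-week mutant the fourth was the lowest for 9. The restricted wild type had no such library, since its 4 libraries shared the highest values as 4, 4, 1 and 1 genes.

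The spread within a group differed from that of other genes in some groups and not in others. At 104 weeks the median SD of log2 CPM was 0.69 for the 10 genes and 0.28 for all genes tested, or 0.46 and 0.27 without the first library. It was 0.48 against 0.27 in the restricted mutant and 0.33 against 0.18 in the freely fed wild type at 16 weeks. In the 7-week mutant it was 0.15 against 0.16, in the 16-week freely fed mutant 0.26 against 0.22, and in the restricted wild type 0.31 against 0.32. Hspa1a ranged 12.9-fold among the libraries at 104 weeks, 7.07-fold without the first, and 1.60-fold among those of the 7-week mutant. These values are a description, since genes measured in the same libraries are not independent.

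**Figure D4:**
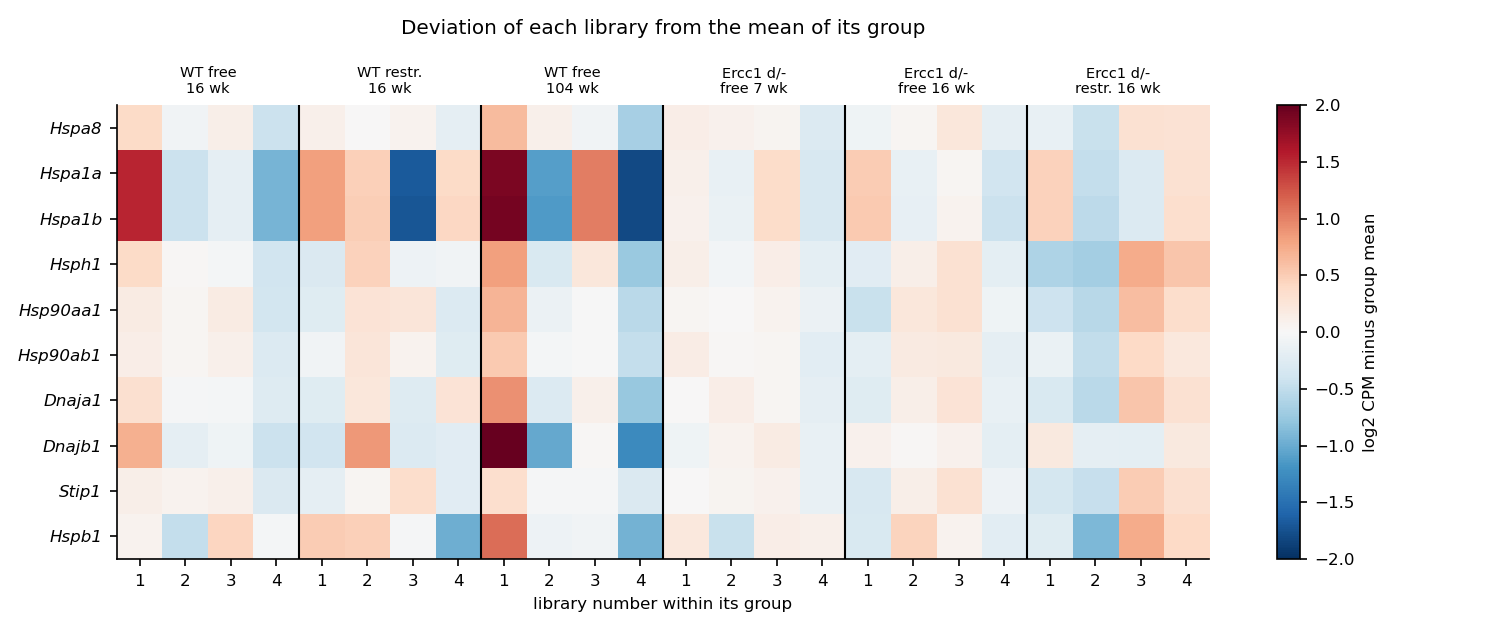
Deviation of each gene's log2 CPM from its group mean (colour, red above and blue below), with the 24 libraries as columns by group. The first 104-week library lies above 0 for all 10 genes and the fourth lies below 0 for all 10.

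Genotype on free feeding at 16 weeks gave no call. edgeR called 0 of 10 (0 at an unadjusted p under 0.05) and DESeq2 called 0, while edgeR called 9.94% of all genes tested and 24% had an unadjusted p under 0.05. The median log2 difference of the 10 genes was -0.31 beside 0.02 for all genes. Hsp90aa1 averaged 473 ± 107 CPM in the mutant and 645 ± 104 CPM in the wild type, a difference of -0.45 ± 0.25 with a 95% interval from -0.96 to 0.07 (edgeR adjusted p = 0.279). Stip1 differed by -0.32 ± 0.19 (edgeR adjusted p = 0.313), and Hspa8 by 0.07 ± 0.21 (edgeR adjusted p = 0.891). Of the 52 other chaperones, 2 were higher and 1 lower, beside 5.1% and 4.85% of all genes. Hspa4l was lower in the mutant by 1.02 on the log2 scale, at 22.6 ± 5.24 CPM against 45.8 ± 7.35 CPM (edgeR adjusted p = 0.0255). Unc45a, an Hsp90 partner for myosin folding, was higher by 0.51 ± 0.16 (edgeR adjusted p = 0.044) and the TRiC subunit gene Cct2 by 0.32 ± 0.10 (edgeR adjusted p = 0.0494).

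Age in the mutant was read from freely fed mutants at 16 against 7 weeks. Hspa1a read 143, 121, 172 and 107 CPM at 7 weeks and 64.5, 40.8, 46.6 and 34.7 CPM at 16 weeks. Every 16-week library was below every 7-week one. The log2 difference was -1.54 ± 0.65, with an edgeR adjusted p of 0.401 in the fit that shares 1 spread over all 6 groups.

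Hspb1 lay the other way, at 38.0, 24.2, 36.1 and 35.4 CPM at 7 weeks and 47.5, 79.2, 61.5 and 50.3 CPM at 16 weeks, again without overlap. Its difference was 0.84 ± 0.39 (edgeR adjusted p = 0.457). edgeR called 0 of the 10 genes (3 at an unadjusted p under 0.05), DESeq2 called 0, and edgeR called 0.686% of all genes tested, with 10.4% at an unadjusted p under 0.05. Without overlap, 3 of 10 genes were lower (Hspa1a, Hspa1b and Dnajb1) beside 6.45% of all genes, and 1 was higher beside 5.94%.

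For Hspa1a the SD of log2 CPM was 0.29 and 0.38 in these mutant groups and 1.07 to 1.74 in the 3 wild-type groups. In a fit to the 8 libraries of this comparison alone, 4 of the 10 were called: Hspa1a (edgeR adjusted p = 0.000949), Hspa1b (0.00135), Hspb1 (0.0146) and Dnajb1 (0.0377). Over all genes that fit called 568, against 87 in the fit to all 24 libraries. Of the 52 other chaperone genes, edgeR called 0 in this comparison (2 at an unadjusted p under 0.05), and DESeq2 called 0.

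Restriction in the wild type moved no member past the threshold. All 10 genes had higher means in the restricted group, with a median of 0.38 on the log2 scale beside 0.04 for all genes. edgeR called 0 of 10 (3 at an unadjusted p under 0.05), DESeq2 called 1, Hspb1, and edgeR called 13.6% of all genes, with 28.6% at an unadjusted p under 0.05. Hspb1 averaged 111 ± 44.4 CPM against 53.2 ± 13.6 CPM, a difference of 1.06 ± 0.39 (edgeR adjusted p = 0.072), and it was called when the fourth restricted library was left out (adjusted p = 0.0399). Stip1 was higher without overlap, at 150 to 225 CPM against 109.7 to 145 CPM, a difference of 0.39 ± 0.19 (edgeR adjusted p = 0.17), beside 8.17% of all genes that were higher without overlap. Of the 52 other chaperones, 5 were higher and 1 was lower in edgeR's test, beside 6.3% and 7.3% of all genes. The TRiC subunit genes Cct5 (0.49 ± 0.11), Cct4 (0.39 ± 0.10) and Cct8 (0.35 ± 0.11) were higher, as were the J protein gene Dnajc7 (0.50 ± 0.12) and the factor gene Hsf4 (0.77 ± 0.23). Hsbp1, which encodes a binding partner of HSF1, was lower (-0.53 ± 0.14).

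Restriction in the mutant gave means below those of free feeding for 8 of the 10 genes. edgeR called 0 of 10 (1 at an unadjusted p under 0.05), DESeq2 called 0, and edgeR called 11.2% of all genes, with 25.3% at an unadjusted p under 0.05. Hsph1 averaged 83.9 ± 41.4 CPM in restricted and 138 ± 24.99 CPM in freely fed mutants, a difference of -0.72 ± 0.31 (edgeR adjusted p = 0.141). It was called without the third restricted mutant library, at -0.99 (edgeR adjusted p = 0.0466). Dnajb1 was lower without overlap, at 19.1 to 24.9 CPM against 25.3 to 30.9 CPM, beside 9.6% of all genes that were lower without overlap, and its difference was -0.40 ± 0.54 (edgeR adjusted p = 0.699). Hspa1a differed by 0.18 ± 0.64 (edgeR adjusted p = 0.905). Of the 52 other chaperones, 3 were higher and 2 lower, beside 4.91% and 6.33% of all genes. Hspa9 was higher by 0.45 ± 0.09 (edgeR adjusted p = 0.00229) and Ppid, an Hsp90 cyclophilin, was lower by 0.44 on the log2 scale (edgeR adjusted p = 0.0223). Hspa2 was higher by 1.49 ± 0.36, and Hsf2 was lower, at -0.63 ± 0.20. Bag2 was also called higher, at 0.981 ± 0.309 CPM against 0.276 ± 0.241 CPM (edgeR adjusted p = 0.0246).

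Whether restriction acted differently in the 2 genotypes was tested by the interaction. All 10 interaction terms were below 0, with a median of -0.56 on the log2 scale beside -0.04 for all genes. edgeR called 0 of 10 (3 at an unadjusted p under 0.05), DESeq2 called 0, and edgeR called 1.5% of all genes tested, with 14.2% at an unadjusted p under 0.05. The terms with an unadjusted p under 0.05 were Stip1 at -0.72 ± 0.27 (edgeR adjusted p = 0.2), Hsph1 at -1.10 ± 0.43 (edgeR adjusted p = 0.242) and Hspb1 at -1.29 ± 0.54 (edgeR adjusted p = 0.282). The calls under restriction and their lack on free feeding are therefore not shown to differ. These comparisons share groups, so their values are given side by side and not as independent results.

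Genes whose levels followed the members most closely were ranked over the 24 libraries. The measure was Pearson's r between a gene's log2 CPM and the mean of the 10 scaled member profiles, over 10439 other genes. The highest were Bag3 (r = 0.911), an Hsp70 exchange factor, Chordc1 (0.866), Cacybp (0.857), Ahsa1 (0.852), Ahsa2 (0.832), P4ha1 (0.8286), Hspa4l (0.815) and Uba1 (0.802). Bag3, Chordc1, Ahsa1 and Hspa4l are in the lists of chaperones and cochaperones. Without the 104-week library that stood apart, r was 0.882 for Bag3 and 0.853 for Chordc1, and 0.764 for P4ha1 and 0.739 for Uba1, which then no longer ranked among the first 8. The points share their libraries and depth, so the r values are a description without a test. Bag3 averaged 31.6 ± 6.96 CPM in the restricted mutant and 67.7 ± 18.9 CPM in the restricted wild type. Because Bag3 was picked by its likeness to the members in these same libraries, its difference adds no separate evidence to theirs.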

How the data were processed

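Raw counts per gene and library were deposited by the authors, without normalization. The submitters' processing notes name featureCounts (Subread 1.6.4), STAR 2.7.0f, Trimmomatic 0.39 and genome build GRCm38.p6. Not given in the sources used here: annotation release, strand setting, handling of multi-mapped reads. Positions and exon lengths (exons merged over all transcripts of a gene) came from GENCODE on GRCm38, and promoter windows from RefSeq on GRCm38.p6.

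Counts were analysed in R 4.3.3 with edgeR 4.0.16: filterByExpr with the groups left 12690 genes, library sizes were scaled by TMM, and a mean for each of 6 groups was fitted to 24 libraries (18 residual degrees of freedom, common dispersion 0.0493, robust quasi-likelihood fit). p-values were adjusted by Benjamini-Hochberg over all genes tested, at a threshold of 0.05. The 95% intervals came from the SE of that fit. Levels are CPM on scaled library sizes, and no count fell under 328 for any of the 10 genes, so counting error is small beside the spread between libraries. Alternatives were DESeq2 1.42.0, RLE scaling, unscaled libraries, no filter, only the libraries compared, the replicate number as a block, Hspa1a and Hspa1b summed, and each library left out in turn. The steps were tested on simulated counts. All libraries of a group differed from each other beyond sampling noise (chi-square per degree of freedom at least 8.32). The lowest value was between libraries 3 and 4 of the restricted mutant. Between either of these and libraries 1 and 2 of that group it was 48.0 to 54.2, and between libraries 1 and 2 it was 29.6. Libraries 1 and 2 were also the low ones for Stip1, Hsph1 and the Hsp90 genes.

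The 10 genes and the 22 other lists were chosen with earlier results of these data known. All 10 genes are described in each comparison. Up to 5 called genes of the chaperone lists with the smallest adjusted p are named per comparison, and up to 3 per other list. Likeness used genes with a mean of at least 2 CPM (prior count 2), and the 8 highest are named. Values of Bag3, Cct2, Cct8 and Hsf1 were added after they were seen.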

Additional observations from a re-analysis of the deposited data

Results flagged for a closer look

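In 5 of the 60 combinations of gene and group, 1 library lay far from the other 3; chance alone gives about 1 in 20. Hspa1a at 192 CPM and Hspa1b at 234 CPM stood high in the first freely fed wild-type library at 16 weeks, and these are effectively 1 measurement. Dnajb1 stood high at 288 CPM in the first 104-week library and at 77.9 CPM in the second restricted wild-type library. Stip1 stood low at 109.7 CPM in the fourth freely fed wild-type library at 16 weeks. The cause was not tested in any of the 5.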

How the results depend on the processing

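The comparison of genotypes under restriction called 4 or 5 of the 10 genes under every alternative run, and 4 to 5 when each library was left out in turn; Stip1, Hsph1, Hsp90aa1 and Hsp90ab1 were called in all 8 of those fits, and Hspb1 in 2. DESeq2 called 1 gene where edgeR called 0 in the wild-type comparisons of age and of restriction (Hspb1 in both). Of the 52 other chaperone genes, DESeq2 called 5 where edgeR called 3 for genotype on free feeding, 10 where it called 6 for wild-type age and 8 where it called 5 for restriction in the mutant. Over all genes, DESeq2 called 1570, 1615 and 1704 in these comparisons, where edgeR called 1262, 1286 and 1426. For restriction in the wild type DESeq2 called 2073 of all genes where edgeR called 1726. The fit to the compared libraries alone called 4 in the comparison of mutant ages, and 568 of all genes where the main fit called 87. The cause was not tested. Leaving out 1 library gave 0 to 6 calls for wild-type age, 0 to 1 for restriction in the wild type and 0 to 1 in the mutant, and 0 to 0 for the other comparisons.

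Uncalled genes changed sign in 13 cases, whose cause was not tested; all values are log2 differences. For restriction in the mutant, unscaled libraries gave Hspa8 0.015 and Dnaja1 0.10, and leaving out 1 library gave -0.213 to 0.023 for Hspa8, -0.227 to 0.133 for Dnaja1 (0.014, 0.074 and 0.084 among them) and -0.506 to 0.00096 for Hspb1. For genotype on free feeding the ranges were -0.062 to 0.197 for Hspa8 (-0.014 among them) and -0.0032 to 0.327 for Hspb1. They were -0.194 to 0.011 for Stip1 with mutant age, and -0.082 to 0.594 for Dnajb1 with restriction in the wild type.

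With the replicate number as a block, 4 genes were called in the comparison of genotypes under restriction (Hspb1 lost its call) and 0 in the others. The labels do not say whether the numbers pair the samples, and correlations of this kind cannot exclude a pairing. Same-numbered libraries deviated together with r from -0.222 to 0.316. The r was above 0.1 for every number in 0 of 6 comparisons, and 6 of 24 matched their own number best. Limits: with 4 libraries a group, depth is not the limit, the spread between libraries is. How far the counts of Hspa1a and Hspa1b are separate is not known.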
